A study of Mus musculus with 6 samples.

Results

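The matrix metalloproteinase (MMP) and tissue inhibitor of metalloproteinase (TIMP) genes of cultured mouse macrophages were followed across 3 culture conditions. The set held 10 genes, 7 MMP genes (Mmp2, Mmp8, Mmp9, Mmp12, Mmp13, Mmp14 and Mmp19) and 3 inhibitor genes (Timp1, Timp2 and Timp3), of 22180 genes measured. They were taken by name from probe sets whose annotation names a single gene, and each had 1 such probe set. Marrow from C57Bl/6 mice was turned into macrophages by a 5 day preculture with the growth factor M-CSF at 20 ng/ml, which every group shared. After replating, 1 group received M-CSF at 50 ng/ml, another FSL-1 at 20 ng/ml, and the last FSL-1 at the same dose together with nutlin-3a at 10 µM, each for 6 days and with 2 arrays. FSL-1 is a lipopeptide agonist of the receptor pair TLR2 and TLR6, and nutlin-3a keeps Mdm2 from binding p53 and was given to raise active p53. The study names multinucleated giant cells among its subjects without tying them to a group. Whether the FSL-1 media held M-CSF too is not stated in the labels. In the comparisons with the M-CSF group, effects of FSL-1 and of a differing M-CSF dose therefore cannot be told apart. The RNA was from sorted cells, with no gate stated, and nothing says that the 2 arrays of a group came from separate cultures or animals.

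MMPs are zinc-dependent endopeptidases that are made as inactive proenzymes and together can cleave most proteins of the extracellular matrix. Macrophages use them to cross and remodel tissue, and osteoclasts, the giant cells of bone formed by fusion of macrophage precursors, use several of them in resorption. TIMPs occupy the active site of the enzymes and so block them, and the balance of enzyme and inhibitor sets local proteolysis. Arrays measure the messages, so neither proenzyme activation nor inhibition by TIMP proteins is part of these values.

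Values are log2 expression after RMA, so a difference of 1 is a doubling. Replicate arrays correlated at 0.993 to 0.995 over all genes, against 0.979 to 0.986 between groups. The labelled cell type was checked against 12 macrophage markers. Of these, 11 or 12 lay above the 95th percentile of probe sets that name no gene (7.91 to 7.99) on every array, among them Cd68 (13.08 to 13.24) and Lyz2 (13.02 to 13.25). Of the 12, 2 rose and 2 fell with FSL-1 and 0 rose and 3 fell with nutlin-3a (2 higher at an unadjusted p under 0.05); removing M-CSF replicate 1 or either FSL-1 array brought both counts with FSL-1 to 0, the count that rose was 1 without M-CSF replicate 2, and the count that fell was 1 without either nutlin-3a array. Of 14 fibroblast and stromal markers, 0 or 1 lay above that percentile on any array, and of 14 neutrophil markers 0 to 2. Of the 10 members, 3 (Mmp12, Mmp19 and Timp2) lay above that percentile on both M-CSF arrays and the other 7 on neither, and 9 lay above the median of the same probe sets on both, Timp1 on 1. Detection calls were not used, so whether these 7 were above background in M-CSF is not known. Their folds are those of the RMA values. In every group Mmp2, Mmp13, Timp1 and Timp3 lay above that percentile on 0 arrays, as did Mmp9 in FSL-1. Timp1 lay above the median on 0 of the nutlin-3a arrays. The same limit holds for these genes in those groups. In bulk RNA, more cells of a type and more RNA per cell cannot be told apart. A gene was called changed at a Benjamini-Hochberg adjusted p under 0.05 over all genes (limma, 2 arrays per group, 1 fit over the 6 arrays), and all adjusted p-values are from that test. Counts in the marker and pathway lists stand beside these shares of all genes called. With FSL-1 3.91% were higher and 2.95% lower, and with nutlin-3a 2.38% and 4.12%. Between the nutlin-3a and M-CSF groups they were 4.58% and 4.94%. A list count of 1 can lie near such a share.

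Mmp8, Mmp12 and Mmp13 sit in a run of 10 MMP genes on mouse chromosome 9, in the order Mmp13, Mmp12, Mmp1b, Mmp3, Mmp1a, Mmp10, Mmp8, Mmp27, Mmp20 and Mmp7 in the RefSeq table (GRCm38.p6). The promoters of these 3 members and of Mmp14, which lies on chromosome 14, are shown because the results turn on these genes. Each window runs from 250 bases before to 50 bases after the start of the gene (RefSeq, GRCm38.p6, all on the + strand). Capitals mark TGANTCA, the core recognised by AP-1, the dimer of Fos and Jun proteins; it reads the same on both strands. The windows are chr9:7272264-7272563 for Mmp13, chr9:7347124-7347423 for the second listed start of Mmp12, chr9:7558179-7558478 for Mmp8 and chr14:54431348-54431647 for Mmp14.
Mmp13: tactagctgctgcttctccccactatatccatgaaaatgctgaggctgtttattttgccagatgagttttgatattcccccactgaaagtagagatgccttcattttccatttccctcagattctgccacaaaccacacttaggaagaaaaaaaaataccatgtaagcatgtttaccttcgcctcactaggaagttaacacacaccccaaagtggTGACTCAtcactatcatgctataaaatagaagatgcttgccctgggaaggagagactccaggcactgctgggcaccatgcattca
Mmp12: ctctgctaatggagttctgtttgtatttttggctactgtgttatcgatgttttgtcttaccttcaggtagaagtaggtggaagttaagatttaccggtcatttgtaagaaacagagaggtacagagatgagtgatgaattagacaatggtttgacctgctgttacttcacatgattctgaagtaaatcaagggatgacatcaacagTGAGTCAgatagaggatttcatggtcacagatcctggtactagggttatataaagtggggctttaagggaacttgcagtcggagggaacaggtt
Mmp8: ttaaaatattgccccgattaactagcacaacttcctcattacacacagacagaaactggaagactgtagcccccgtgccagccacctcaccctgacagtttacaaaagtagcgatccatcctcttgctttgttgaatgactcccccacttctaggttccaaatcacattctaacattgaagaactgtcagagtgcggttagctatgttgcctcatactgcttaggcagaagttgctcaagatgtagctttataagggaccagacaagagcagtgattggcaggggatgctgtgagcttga
Mmp14: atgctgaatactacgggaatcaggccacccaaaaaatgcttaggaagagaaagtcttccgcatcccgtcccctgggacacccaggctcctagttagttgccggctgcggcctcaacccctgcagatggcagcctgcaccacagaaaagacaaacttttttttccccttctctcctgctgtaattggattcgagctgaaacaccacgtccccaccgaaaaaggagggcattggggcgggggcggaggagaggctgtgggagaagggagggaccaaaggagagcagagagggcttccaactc
The Mmp13 window held TGACTCA starting 35 bases before the start site, and the Mmp12 window held TGAGTCA starting 44 bases before it. These letters were not in the windows of Mmp8 or Mmp14, in that of the other Mmp12 start, or in those of Timp1, Timp2 and Timp3. Of all 32851 promoter windows of the same length in the table, 7.81% held the motif. A match is a description of the sequence and does not show that a factor bound there. Windows for 7 of the 10 members were in the table used; Mmp2, Mmp9 and Mmp19 had none there.

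**Figure D1:**
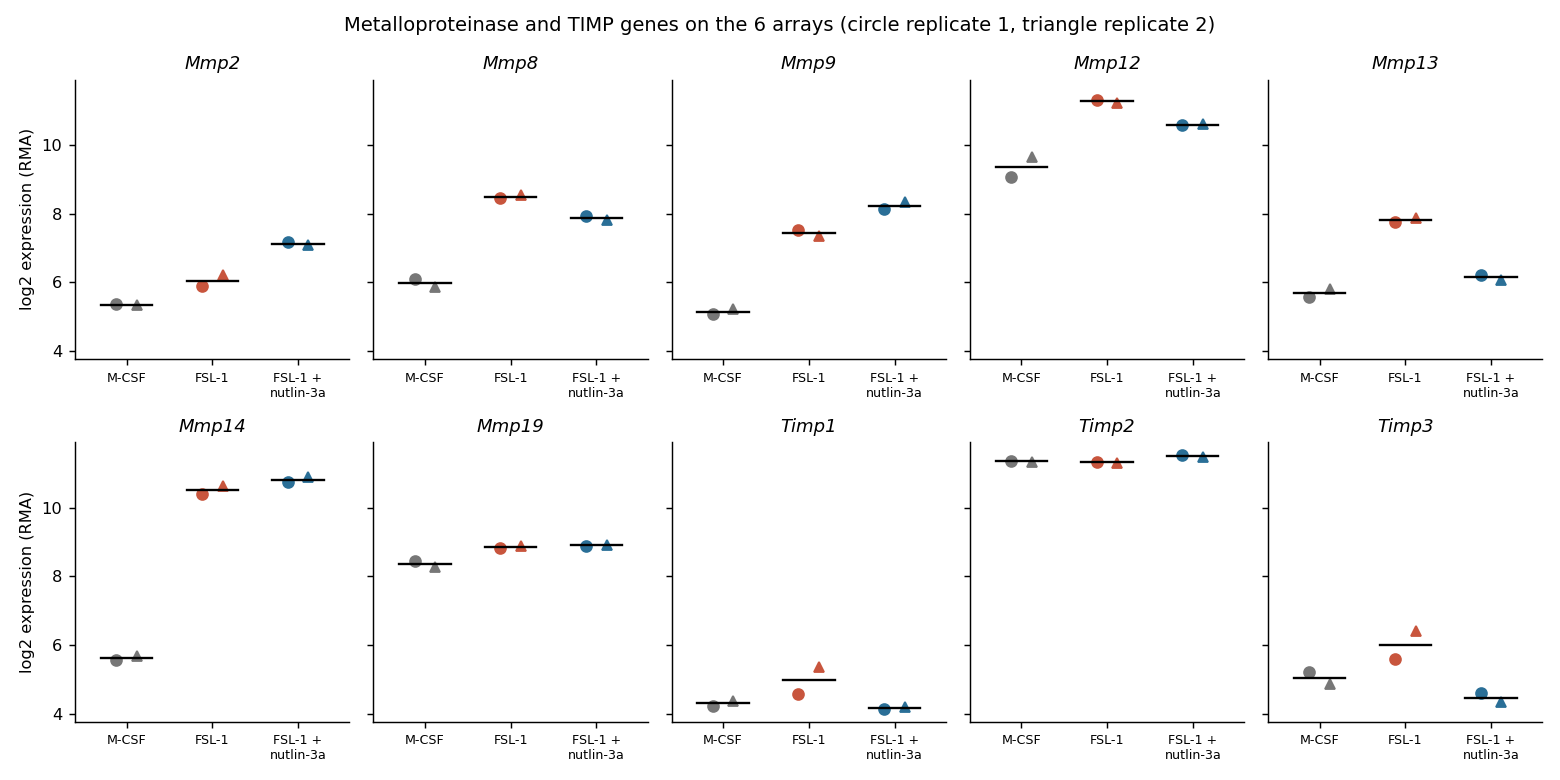
Log2 expression (RMA, vertical axis) of the 10 genes on each of the 6 arrays by culture condition (horizontal axis), with circles for replicate 1, triangles for replicate 2 and bars for the mean of 2 arrays. Mmp14 moved from 5.57 and 5.69 in M-CSF to 10.40 and 10.64 in FSL-1, while Timp2 stayed between 11.32 and 11.54 on all arrays.

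Macrophages stimulated with FSL-1 were first set against those kept in M-CSF. All 7 MMP genes rose with FSL-1, from 1.41-fold for Mmp19 to 29.6-fold for Mmp14, and 0 of the 3 TIMP genes were called by limma (2 higher and 0 lower at an unadjusted p under 0.05). Of the 10 genes, 7 rose and 0 fell (9 higher and 0 lower at an unadjusted p under 0.05). Over all 22180 genes, 6.86% were called, 3.91% higher and 2.95% lower. The median log2 change was 2.13 over the MMP members and 0.67 over the TIMP members, beside -0.01 over all genes. The 2 groups did not overlap in any of the 10 genes, as in 50.2% of all genes. These genes had been chosen with earlier results of the same arrays known.

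Mmp14 encodes a membrane-anchored metalloproteinase that cuts collagen at the cell surface and activates the proenzyme of MMP2. Its log2 values were 5.57 and 5.69 in M-CSF, 10.40 and 10.64 in FSL-1, and 10.74 and 10.89 in FSL-1 + nutlin-3a. The M-CSF arrays stood far below the other 4, and the 2 FSL-1 groups lay next to each other without overlap. The log2 change with FSL-1 was 4.89 (SE 0.132, adjusted p = 3.76e-06), a 29.6-fold rise in the RMA values from an M-CSF level below the 95th percentile of probe sets that name no gene.

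The collagenases followed. Mmp8, known as the collagenase of neutrophil granules, had 6.11 and 5.86 in M-CSF, 8.45 and 8.55 in FSL-1, and 7.94 and 7.82 with nutlin-3a added. Its FSL-1 arrays were the highest, the nutlin-3a arrays lay between, and no groups overlapped. The rise with FSL-1 was 5.70-fold (log2 change 2.51, SE 0.131, adjusted p = 4.77e-05). Mmp13, the collagenase of cartilage and bone, had 5.57 and 5.82 in M-CSF, 7.76 and 7.88 in FSL-1, and 6.22 and 6.08 with nutlin-3a added. Here too the FSL-1 arrays were the highest, but the nutlin-3a arrays were close to those in M-CSF. Mmp13 rose 4.37-fold with FSL-1 (log2 change 2.13, SE 0.135, adjusted p = 0.000128).

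Mmp12 encodes macrophage elastase, which cleaves elastin and is made mainly by macrophages. It had 9.07 and 9.66 in M-CSF, 11.31 and 11.23 in FSL-1, and 10.58 and 10.61 with nutlin-3a added. The 2 M-CSF arrays differed more from each other than the arrays of either other group, and both lay below the rest. Mmp12 rose 3.76-fold with FSL-1 (log2 change 1.91, SE 0.185, adjusted p = 0.00103).

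The gelatinases Mmp9 and Mmp2 degrade denatured collagen and basement membrane collagen. Mmp9, abundant in osteoclasts, had 5.07 and 5.21 in M-CSF, 7.53 and 7.34 in FSL-1, and 8.13 and 8.35 with nutlin-3a added. Mmp2, which in many tissues is made by stromal cells, had 5.38 and 5.34 in M-CSF, 5.90 and 6.21 in FSL-1, and 7.18 and 7.08 with nutlin-3a added. In both genes the order was M-CSF, FSL-1, FSL-1 + nutlin-3a, with no overlap between neighbouring groups. With FSL-1, Mmp9 rose 4.91-fold (log2 change 2.30, SE 0.136, adjusted p = 9.03e-05). The rise of Mmp2 was smaller, 1.62-fold (log2 change 0.70, SE 0.137, adjusted p = 0.0231), and its call was lost without M-CSF replicate 1 (adjusted p = 0.109), M-CSF replicate 2 (0.0869) or FSL-1 replicate 2 (0.149).

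Mmp19, a metalloproteinase with basement membrane substrates that macrophages also express, changed least among the MMP members. Its values were 8.46 and 8.29 in M-CSF, 8.84 and 8.90 in FSL-1, and 8.89 and 8.92 with nutlin-3a added. The 4 FSL-1 arrays lay within a narrow band above both M-CSF arrays. The rise with FSL-1 was 1.41-fold (log2 change 0.50, SE 0.118, adjusted p = 0.0474), and removing any single array of the 6 ended the call (adjusted p from 0.0699 to 0.228).

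None of the 3 inhibitor genes was called with FSL-1 in the main fit. Timp3 was called under some of the alternative settings given in the closing section. The changes of Timp1 (0.67, SE 0.234) and Timp3 (0.97, SE 0.255) were larger than that of the called Mmp19 (0.50, SE 0.118). Timp2, which inhibits MMP2 and also helps Mmp14 protein to activate it, had 11.37 and 11.34 in M-CSF, 11.32 and 11.32 in FSL-1, and 11.54 and 11.49 with nutlin-3a added. The whole range over the 6 arrays was 0.22. Its change with FSL-1 was -0.03 (95% interval -0.28 to 0.22, adjusted p = 0.923).

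Timp1, a soluble inhibitor of most secreted MMPs, had 4.23 and 4.38 in M-CSF, 4.57 and 5.37 in FSL-1, and 4.14 and 4.20 with nutlin-3a added. Timp3, the inhibitor that binds to the matrix and also blocks the shedding protease ADAM17, had 5.21 and 4.86 in M-CSF, 5.60 and 6.41 in FSL-1, and 4.59 and 4.34 with nutlin-3a added. In both genes FSL-1 replicate 2 was the highest array by a wide margin. The change with FSL-1 was 0.67 for Timp1 (SE 0.234, 95% interval 0.13 to 1.21, adjusted p = 0.148) and 0.97 for Timp3 (SE 0.255, 95% interval 0.38 to 1.56, adjusted p = 0.0651). Without FSL-1 replicate 1 the changes were 1.07 for Timp1 and 1.38 for Timp3. Without FSL-1 replicate 2 they were 0.27 and 0.57, so their size hung on which FSL-1 array was kept.

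FSL-1 replicate 2 was also the highest array for other genes of extracellular matrix proteins. Of 14 fibroblast and stromal markers, 6 had their highest value there and 5 on FSL-1 + nutlin-3a replicate 1. Of 21 matrix substrates of MMPs, 11 were highest on FSL-1 replicate 2 and at most 3 on any other array. Postn, which encodes periostin, had 6.77 on that array and 3.92 to 5.23 on the others. The small proteoglycan gene Dcn had 5.17 there and 4.02 to 4.35 elsewhere, and Bgn, which encodes biglycan, had 9.20 there and 6.36 to 8.34 elsewhere; these 3 genes were named after their values were seen. The summed level of the 14 stromal markers (log2 of the sum) was 9.46 and 9.56 in M-CSF, 9.87 and 10.23 in FSL-1, and 9.27 and 9.52 with nutlin-3a added. Of the 14, 2 rose with FSL-1, Vcam1 (0.66, adjusted p = 0.0257) and Acta2 (0.99, adjusted p = 0.0356), and 0 fell (0 also at an unadjusted p under 0.05); both calls were lost when any 1 of the 4 arrays compared was removed, where the count was 1, from another marker, without FSL-1 replicate 1 and 0 otherwise. With nutlin-3a 0 rose (0 also at an unadjusted p under 0.05) and 2 fell, Acta2 (-1.33, adjusted p = 0.0129) and Col1a2 (-0.80, adjusted p = 0.0292), and 0 fell once the second array of either group was removed. Other markers of the list stayed low: Lum lay at 2.64 to 2.99 and Pdgfra at 4.16 to 4.76 on the 6 arrays. The part of these genes' source in the Timp1 and Timp3 values was not tested.

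**Figure D2:**
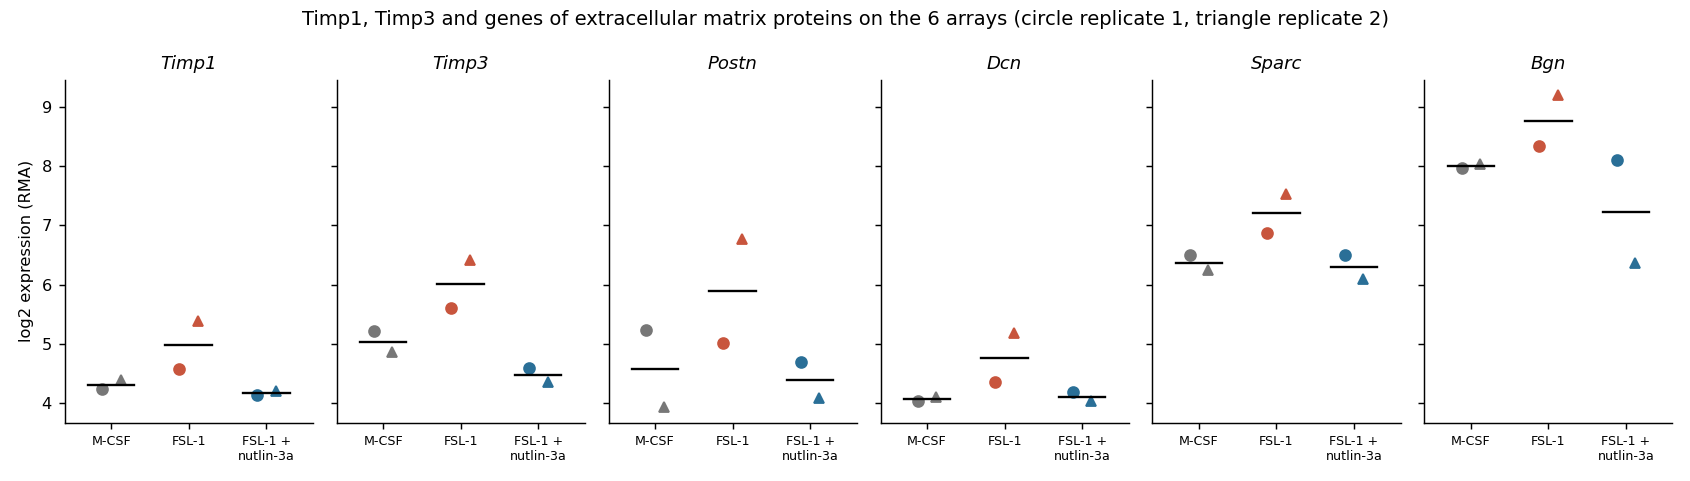
Log2 expression (RMA, vertical axis) of Timp1, Timp3, Postn, Dcn, Sparc and Bgn on the 6 arrays by culture condition (circles replicate 1, triangles replicate 2, bars the mean of 2 arrays). FSL-1 replicate 2 is the highest array in every panel, at 5.37 for Timp1 and 6.41 for Timp3; the last 4 genes were chosen after their values were seen.

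Mmp8 and Mmp9 are also neutrophil genes. The summed level of 14 neutrophil markers was 9.17 and 9.29 in M-CSF, 10.06 and 10.11 in FSL-1, and 9.58 and 9.72 with nutlin-3a added. Of the 14, 3 rose and 0 fell with FSL-1 (1 lower at an unadjusted p under 0.05), and 0 rose and 1 fell with nutlin-3a (1 higher at an unadjusted p under 0.05). Lcn2 and S100a8, which macrophages can also express, had log2 changes of 2.77 (adjusted p = 0.000202) and 2.40 (adjusted p = 0.000825) with FSL-1, and Lcn2 fell with nutlin-3a (-1.78, adjusted p = 0.00246). Cxcr2 was the third that rose (log2 change 0.60, adjusted p = 0.0467), and of the 6 arrays its call survived only the removal of M-CSF replicate 2. Of the other listed markers, Csf3r lay at 7.90 to 8.51 on the 6 arrays, near or above the 95th percentile named above (7.91 to 7.99). Mpo lay at 4.48 to 4.95, Elane at 4.81 to 5.40, Ngp at 4.06 to 4.35 and Ly6g at 3.80 to 4.65. Prtn3, Ctsg, Ltf, Camp, S100a9 and Retnlg lay between 3.17 and 5.24. Probe sets that name no gene had a median of 4.19 to 4.30. The part of neutrophil or osteoclast markers in the Mmp8 and Mmp9 values was not tested.

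Mmp9 and Mmp14 are also expressed by osteoclasts. Of 10 osteoclast markers, 3 rose and 1 fell with FSL-1, and 0 rose and 2 fell with nutlin-3a (2 higher at an unadjusted p under 0.05). Acp5, the tartrate-resistant phosphatase gene, rose with FSL-1 (2.49, adjusted p = 0.00017), as did the collagen-degrading protease gene Ctsk (1.99, adjusted p = 0.000932) and the proton pump gene Atp6v0d2 (0.86, adjusted p = 0.00917), while Itgb3 fell (-0.64, adjusted p = 0.0389). Ctsk (-1.30, adjusted p = 0.00798) and Atp6v0d2 (-0.81, adjusted p = 0.0131) fell with nutlin-3a. Of the 10 markers, 7 had a positive change with nutlin-3a and 3 a negative one. Acp5 had 7.59 and 7.59 in FSL-1 and 7.76 and 7.87 with nutlin-3a added. The group means of Tnfrsf11a (8.37 to 8.92), Nfatc1 (8.22 to 8.80) and Itgb3 (8.57 to 8.88) were also higher, without a call. Calcr, Oscar, Dcstamp and Ocstamp lay between 4.09 and 5.70 on the 6 arrays. The count of 1 that fell with FSL-1 was 0 if either FSL-1 array or either nutlin-3a array was removed, and the count of 2 with nutlin-3a became 1 on removing FSL-1 replicate 1 and 0 on removing the second array of either group. Of 9 dendritic cell markers, 1 lay above the 95th percentile named above on each array. With FSL-1, 1 of the 9 rose (Ccr7, 0.65, adjusted p = 0.0208), and with nutlin-3a 1 rose (Itgax, 0.88, adjusted p = 0.0123) and 1 fell (Kmo, -0.82, adjusted p = 0.0234). The Ccr7 and Kmo counts were 0 when any 1 of the 4 arrays compared was removed, and the Itgax count was 0 without either FSL-1 array or FSL-1 + nutlin-3a replicate 1.

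With nutlin-3a added to FSL-1, Mmp2 and Mmp9 rose further, Mmp8, Mmp13 and Timp3 fell, and Mmp14, Mmp19, Mmp12, Timp1 and Timp2 were not called. Of the 10 genes, 2 rose and 3 fell, beside 6.5% of all genes called, 2.38% higher and 4.12% lower. The 2 groups did not overlap in 9 of the 10 genes, Mmp19 being the exception, against 50.9% of all genes. The median change was 0.04 over the MMP members and -0.80 over the TIMP members, beside 0.02 over all genes.

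Mmp2 rose 2.11-fold with nutlin-3a (log2 change 1.08, SE 0.137, adjusted p = 0.0044), and the call survived the removal of any single array. Mmp9 rose 1.74-fold (log2 change 0.80, SE 0.136, adjusted p = 0.0148). That call was lost without FSL-1 replicate 1 (adjusted p = 0.0625), FSL-1 replicate 2 (0.114) or FSL-1 + nutlin-3a replicate 2 (0.0804). The count of 2 was therefore 1 without each of these 3 arrays.

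Among the genes that fell, Mmp13 moved most, to a level 3.18-fold lower (log2 change -1.67, SE 0.135, adjusted p = 0.000667), and its call survived the removal of any single array. Timp3 was 2.91-fold lower (log2 change -1.54, SE 0.255, adjusted p = 0.0134). Its call was lost without FSL-1 replicate 2 (change -1.14, adjusted p = 0.0516), FSL-1 + nutlin-3a replicate 1 (-1.66, 0.0567) or FSL-1 + nutlin-3a replicate 2 (-1.41, 0.0822). Mmp8 was 1.54-fold lower (log2 change -0.62, SE 0.131, adjusted p = 0.0339), and that call ended when any 1 of the 4 arrays compared was removed (adjusted p from 0.0956 to 0.186). With FSL-1 replicate 2 or either nutlin-3a array removed, the count of genes that fell was 1, Mmp13.

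Mmp12 had a change of -0.68 (SE 0.185, adjusted p = 0.0761), with both nutlin-3a arrays below both FSL-1 arrays. On the 2 compared groups alone Mmp12 was called at the same change (adjusted p = 0.0241). Mmp14 had a change of 0.30 (95% interval -0.01 to 0.60, adjusted p = 0.248) and Mmp19 of 0.04 (95% interval -0.24 to 0.31, adjusted p = 0.897). Timp2 had 0.19 (95% interval -0.06 to 0.44, adjusted p = 0.372). Timp1 had -0.80 (95% interval -1.34 to -0.26, adjusted p = 0.0925), and was called without FSL-1 replicate 1 (change -1.20, adjusted p = 0.0192).

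**Figure D3:**
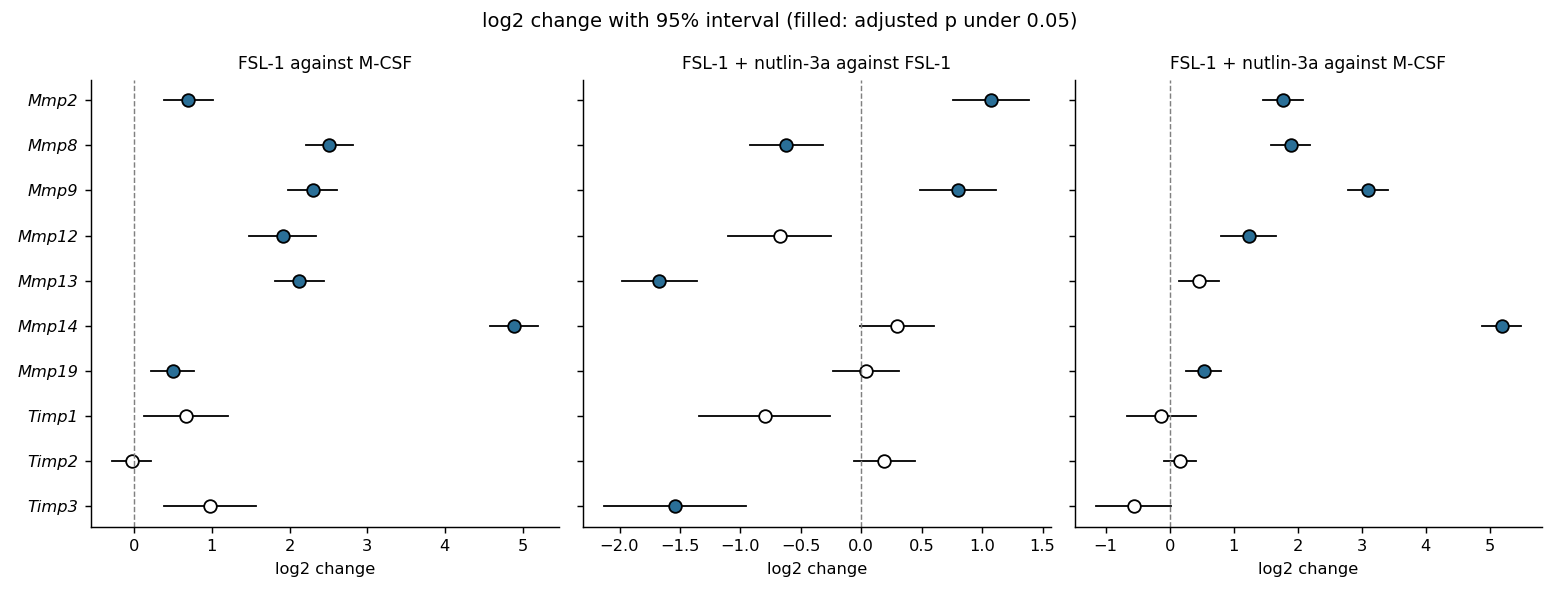
Log2 change (horizontal axis) of the 10 genes in the 3 comparisons, with 95% intervals from the moderated fit as lines and filled points for an adjusted p under 0.05. All 7 MMP genes are filled in the left panel, and with nutlin-3a Mmp2 and Mmp9 lie to the right of 0 while Mmp8, Mmp13 and Timp3 lie to the left.

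Set directly against M-CSF, the FSL-1 + nutlin-3a cultures still had higher levels of 6 genes and lower levels of 0 (0 also at an unadjusted p under 0.05), beside 9.51% of all genes called, 4.58% higher and 4.94% lower. This comparison shares its arrays with the other comparisons. Mmp14 was 36.4-fold higher (log2 change 5.19, adjusted p = 5.23e-06) and Mmp9 8.56-fold (3.10, adjusted p = 2.06e-05). Mmp8 was 3.71-fold higher (1.89, adjusted p = 0.000122), Mmp2 3.42-fold (1.77, adjusted p = 0.000206) and Mmp12 2.35-fold (1.23, adjusted p = 0.00512). Mmp19 rose 1.45-fold (adjusted p = 0.0283), and again removing any single array ended the call. Mmp13, which had risen 4.37-fold with FSL-1 without nutlin-3a, stood at a change of 0.46 (95% interval 0.14 to 0.77, adjusted p = 0.0772). It was called under some of the alternative settings given in the closing section. The 3 TIMP genes had changes of -0.57 for Timp3 (adjusted p = 0.227), -0.13 for Timp1 (adjusted p = 0.796) and 0.16 for Timp2 (adjusted p = 0.431). The groups did not overlap in any of the 10 genes, against 51.5% of all genes.

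In the RMA values the chromosome 9 run of MMP genes did not move as a block. With FSL-1, Mmp13, Mmp12 and Mmp8 rose, and of their 7 neighbours only Mmp10, a stromelysin, was called (log2 change 0.59, SE 0.142, adjusted p = 0.0498, lost when any 1 of the 4 arrays compared was removed). Mmp10 had 4.47 and 4.43 in M-CSF, 5.13 and 4.94 in FSL-1, and 4.63 and 4.93 with nutlin-3a added. Mmp3 (0.10), Mmp1a (-0.08), Mmp1b (-0.06), Mmp20 (-0.06) and Mmp7 (-0.01) had small changes, with adjusted p from 0.732 to 0.983. On the 6 arrays Mmp1a lay at 2.43 to 2.74, Mmp1b at 2.51 to 2.91 and Mmp3 at 3.82 to 4.08. Mmp7 lay at 3.96 to 4.27 and Mmp20 at 3.92 to 4.51. The median of probe sets that name no gene was 4.19 to 4.30, so these flat values need not mean unchanged messages. Mmp27, the gene next to Mmp8, had 9.83 and 9.62 in M-CSF, 9.90 and 9.91 in FSL-1, and 9.23 and 9.10 with nutlin-3a added. It did not pass with FSL-1 (0.18, adjusted p = 0.491), but fell with nutlin-3a to a level 1.67-fold lower (log2 change -0.74, SE 0.126, adjusted p = 0.0149, lost when any 1 of the 4 arrays compared was removed). With nutlin-3a, 3 genes of the run thus fell, Mmp13, Mmp8 and Mmp27, and 0 rose.

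**Figure D4:**
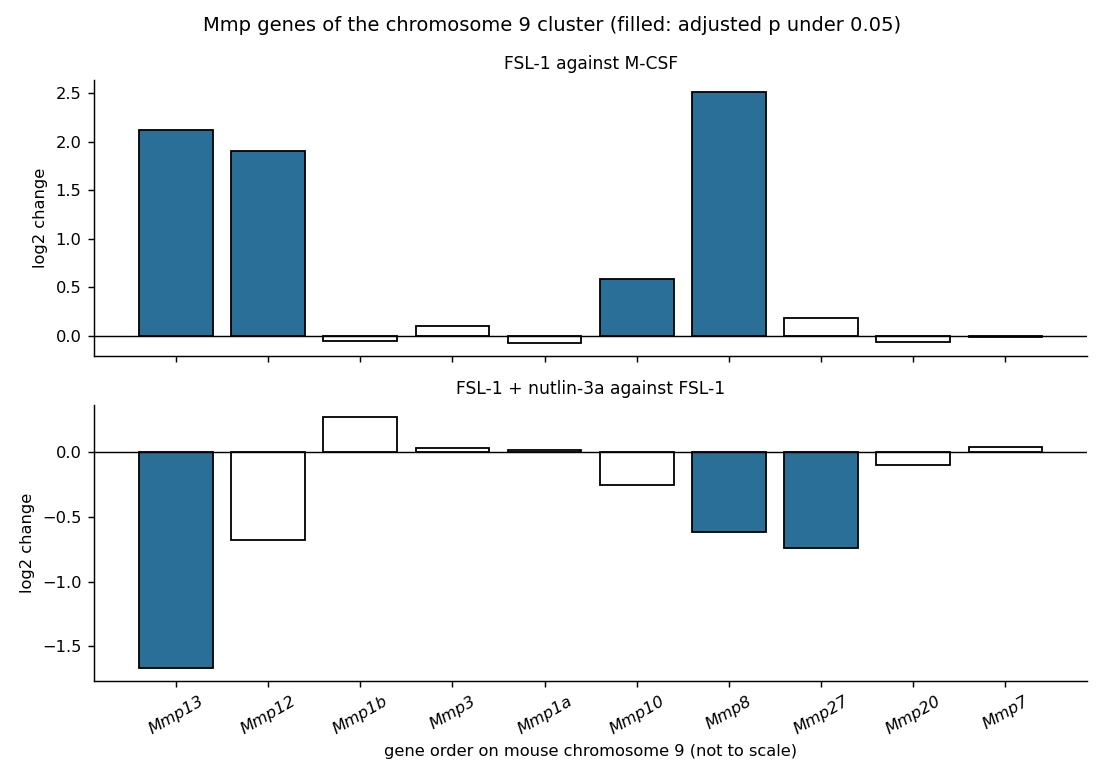
Log2 change (vertical axis) of the 10 MMP genes on chromosome 9 in gene order (horizontal axis, not to scale) for FSL-1 against M-CSF (top) and for FSL-1 + nutlin-3a against FSL-1 (bottom), with filled bars for an adjusted p under 0.05. The 3 tall bars at the top are Mmp13 (2.13), Mmp12 (1.91) and Mmp8 (2.51), and the longest bar at the bottom is Mmp13 (-1.67).

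Of 16 measured genes in the list of other MMPs and Timp4, 1 rose (Mmp10) and 0 fell with FSL-1, and 0 rose and 1 fell (Mmp27) with nutlin-3a. At an unadjusted p under 0.05 these counts of 0 were also 0. The counts of 1 were 0 without any 1 of the 4 arrays compared in each case. Median changes were -0.01 and 0.01. None of 4 other membrane-type genes in this list was called: with FSL-1 the changes were -0.25 for Mmp16 (adjusted p = 0.474), 0.02 for Mmp17 (0.961), 0.03 for Mmp24 (0.932) and -0.02 for Mmp25 (0.972).

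The list of MMP activation and pericellular control held the plasminogen activator system, proprotein convertases and surface partners. Of 16 measured genes, 2 rose and 1 fell with FSL-1, and 2 rose and 1 fell with nutlin-3a. Plaur, the receptor that holds urokinase at the cell surface, had 7.92 and 7.96 in M-CSF, 9.28 and 9.49 in FSL-1, and 9.24 and 9.27 with nutlin-3a added. It rose 2.73-fold with FSL-1 (log2 change 1.45, adjusted p = 0.000479) and had -0.13 with nutlin-3a (adjusted p = 0.603). Serpinb2, an inhibitor of plasminogen activators, rose with FSL-1 (log2 change 2.26, adjusted p = 0.00164) and fell with nutlin-3a (-1.34, adjusted p = 0.0179, lost without either FSL-1 array). Its arrays were 3.26 and 3.01 in M-CSF, 5.32 and 5.46 in FSL-1, and 3.65 and 4.45 with nutlin-3a added. Both M-CSF arrays lay below the median of probe sets that name no gene, so no fold is given.

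Lrp1, an endocytic receptor that clears MMP9, MMP13 and TIMP complexes, went the other way from Mmp13. Its arrays were 11.05 and 10.77 in M-CSF, 10.03 and 10.05 in FSL-1, and 11.37 and 11.10 with nutlin-3a added. It fell with FSL-1 (log2 change -0.87, adjusted p = 0.0129) and rose 2.29-fold with nutlin-3a (1.20, adjusted p = 0.00388). The first call was lost without M-CSF replicate 1 or either FSL-1 array, and the count of 1 gene that fell was then 0; the second held without any 1 of the 6 arrays. Furin, the convertase that removes the propeptide of Mmp14 protein, rose with nutlin-3a (0.48, adjusted p = 0.0445), and no single array of the 6 could be removed without losing the call. The count of 2 genes that rose with nutlin-3a was then 1, and the count of 1 that fell was 0 without either FSL-1 array. Plau, which encodes urokinase, lay between 10.28 and 11.34 and was not called (0.37, adjusted p = 0.341 with FSL-1).

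The ADAM and ADAMTS proteases, are relatives of the MMPs. Of 21 measured, 1 rose with FSL-1 and 0 fell (3 lower at an unadjusted p under 0.05), and with nutlin-3a 0 were called in either direction (2 higher and 3 lower at an unadjusted p under 0.05). Adamts1, a protease of cartilage proteoglycan, was the gene that rose (0.58, adjusted p = 0.0379), and its call was lost when any 1 of the 6 arrays was removed. Removing M-CSF replicate 1 or either FSL-1 array brought the count to 0, and removing M-CSF replicate 2 gave 2 genes that fell. Adam8, an ADAM of myeloid cells, had 0.61 with FSL-1 (adjusted p = 0.069) and 0.49 with nutlin-3a (adjusted p = 0.127), and was called between the nutlin-3a and M-CSF groups (2.14-fold, adjusted p = 0.00484). Of 21 matrix substrates, 0 rose and 0 fell with FSL-1 (5 higher and 0 lower at an unadjusted p under 0.05), and 1 rose without FSL-1 replicate 1. With nutlin-3a 0 rose (0 also at an unadjusted p under 0.05) and 2 fell, Col1a2 (-0.80, adjusted p = 0.0292) and the fibronectin gene Fn1 (-1.67, adjusted p = 0.0424). That count of 2 became 0 without FSL-1 replicate 2 or FSL-1 + nutlin-3a replicate 2, and 1 without either M-CSF array.

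Factors of the AP-1 and Ets families, which bind many MMP promoters, were measured for 17 listed genes. With FSL-1, 6 rose and 0 fell (2 lower at an unadjusted p under 0.05), and with nutlin-3a 1 rose and 1 fell. Ets2 had 7.67 and 8.21 in M-CSF, 11.10 and 11.14 in FSL-1, and 9.78 and 9.62 with nutlin-3a added. It rose 9.07-fold with FSL-1 (log2 change 3.18, adjusted p = 6.71e-05) and fell with nutlin-3a (-1.42, adjusted p = 0.00418), so that its group means had the same order as those of Mmp8, Mmp12 and Mmp13. Both Ets2 calls survived the removal of any single array. The AP-1 genes Atf3 and Batf had the Ets2 order too, without a call with nutlin-3a. In M-CSF, FSL-1 and FSL-1 + nutlin-3a their means were 10.27, 10.97 and 10.59 (Atf3) and 6.11, 7.01 and 6.76 (Batf). How many of all genes share such an order was not counted, and an action of these factors on the MMP genes was not tested.

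Fos, a subunit of AP-1, had 5.12 and 5.53 in M-CSF, 6.32 and 6.73 in FSL-1, and 7.24 and 7.65 with nutlin-3a added. The group means of Mmp2, Mmp9, Mmp14 and Mmp19 had the same order, and those of Mmp8, Mmp12 and Mmp13 did not. The step with nutlin-3a was not called for Mmp14 (adjusted p = 0.248), Mmp19 (0.897, with overlapping groups) or Mmp12 (0.0761), so their orders are not resolved. The Ets genes Elk3 (7.77, 8.21 and 8.62) and Etv5 (7.29, 7.79 and 8.59) had the Fos order in their group means, without a call with nutlin-3a. Neither order was particular to 1 family. Fos rose with FSL-1 (log2 change 1.20, adjusted p = 0.0149, lost on removing M-CSF replicate 1 or the second FSL-1 array). It rose again with nutlin-3a (0.92, adjusted p = 0.0433), a call that ended when any 1 of the 4 arrays compared was removed. Fosl2 (0.76, adjusted p = 0.0113) and Jund (0.87, adjusted p = 0.0144) rose with FSL-1, and both calls were lost without M-CSF replicate 2 or either FSL-1 array. In place of 6 genes that rose, removing M-CSF replicate 1 gave 3, removing FSL-1 replicate 1 gave 2 and removing FSL-1 replicate 2 gave 1. The 1 factor that rose with nutlin-3a became 0 without any 1 of the 4 compared arrays and 2 without either M-CSF array. In nutlin-3a cultures set against M-CSF, 8 rose and 0 fell (1 lower at an unadjusted p under 0.05).

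**Figure D5:**
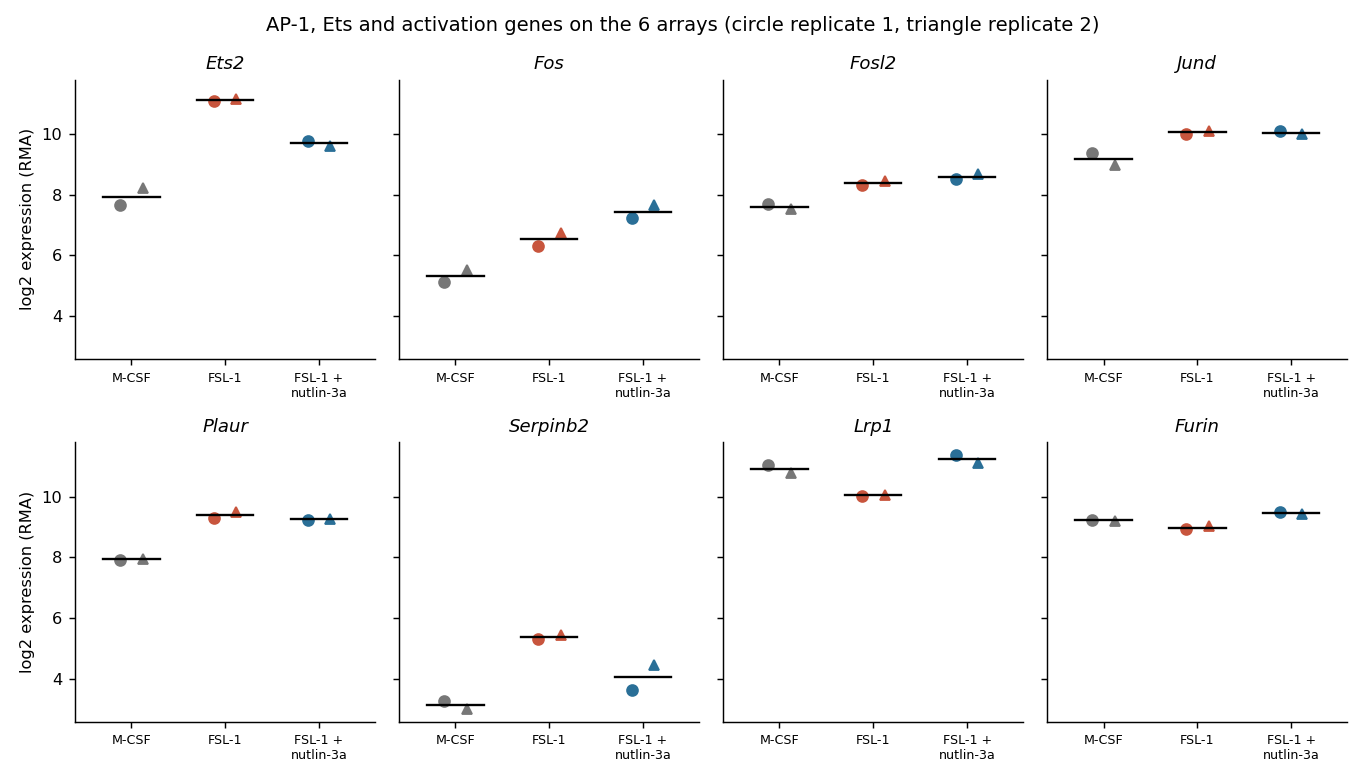
Log2 expression (RMA, vertical axis) of 4 AP-1 and Ets genes and 4 genes of MMP activation and clearance on the 6 arrays by culture condition (circles replicate 1, triangles replicate 2, bars the mean of 2 arrays). Ets2 is highest in FSL-1 (11.10 and 11.14), Fos is highest with nutlin-3a added (7.24 and 7.65), and Lrp1 is lowest in FSL-1 (10.03 and 10.05).

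The genes whose profiles over the 6 arrays lay closest to each called member were found by the Euclidean distance between mean-centred log2 values. For Mmp13 these were Dach1 (distance 0.24), the chemokine Ccl8 (0.26) and Myo1d (0.32). Those of Mmp8 were Ceacam10 (0.23), Cd200 (0.41) and Clmp (0.43), and those of Mmp12 were Gda (0.24), As3mt (0.36) and Slamf9 (0.37). No gene appeared in more than 1 of these 3 sets.

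For Mmp9 the closest were the growth factor receptor gene Met (0.42), Tnf, which encodes tumour necrosis factor (0.43), and Tnfsf4 (0.55). Mmp2 had Cep170b (0.25), the oxysterol receptor gene Nr1h3 (0.28) and Slc16a9 (0.35). Mmp14 had no gene as near, with Slc7a11 at 0.69, Cd55 at 0.95 and Marco at 1.07, on a profile whose own length was 5.83. Mmp19 had Fyb (0.05), the NF-kB inhibitor gene Nfkbia (0.06) and Insl6 (0.11), on a short profile of 0.61. Timp3 had the smooth muscle actin gene Acta2 (0.41), Pdia5 (0.53) and Ddit3 (0.56). Pearson's r with the member was 0.947 to 0.999 for all these genes, across 6 arrays that share the same 3 conditions, and is a description only.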

How the data were processed

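Total RNA of sorted cells was amplified (NuGEN Ovation PicoSL WTA V2), labelled with biotin and hybridised to arrays, per the labels' protocols. The submitters' processing notes name RMA and Affymetrix Expression Console 1.4; the authors deposited log2 values, 1 for each probe set and array. RMA equalises arrays by quantiles, which removes any shift common to most genes; no detection calls were used. The annotation gives a single gene for 23521 of 34390 probe sets, more than 1 for 1814 and no gene for 9055. For the 1082 genes with several probe sets the brightest mean over the arrays was kept, giving 22180 genes; Entrez identifiers matched to RefSeq (GRCm38.p6) changed 0 symbols. Groups and replicate numbers came from the labels.

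The fit used lmFit and eBayes of limma 3.58.1 (R 4.3.3) over all genes and all 6 arrays, with 3 residual and 4.88 prior degrees of freedom, and p-values were Benjamini-Hochberg adjusted over all genes. P-values measure the spread between 2 arrays per group, which may be technical, and the number of arrays limits the precision. The test was checked on simulated data under 2 noise models. With each gene's own, unmoderated SD it called 5.88% of genes changed 1.5-fold, 52.1% at 2-fold and 89.6% at 4-fold. With the moderated SD these shares were 36.7%, 97.4% and 99.9%. The unmoderated model fell short of the limit set for 4-fold changes, and the moderated SD was adopted for the check after that first result. The 10 members, the 5 pathway lists and the 5 marker lists were chosen with earlier results of these data known. Named genes were all members, up to 4 called genes of each pathway list with the smallest p, and the 3 closest profiles per called member, without predicted genes; other names are given as examples. List members without a probe set that names 1 gene are not analysed here. Protein sequences were not used here. Alternatives were 16 settings fixed with the design and 1 added after seeing the data. Figures were drawn with matplotlib 3.10.9.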

Additional observations from a re-analysis of the deposited data

How the results depend on the processing

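Over 10 genes, 3 comparisons and 17 alternative settings, 447 of 504 values stayed on the same side of an adjusted p of 0.05. No log2 change turned its sign. Only a second quantile normalization, centring on the median and the removal of a compared array altered the changes of these genes. The other settings left them as they were and could not turn a sign. The calls of Mmp8, Mmp9, Mmp12, Mmp13 and Mmp14 with FSL-1, of Mmp13 with nutlin-3a and of Mmp2, Mmp8, Mmp9 and Mmp14 between the nutlin-3a and M-CSF groups held in every setting. Leaving out 1 array at a time gave 5 to 8 genes higher and 0 lower with FSL-1, 1 to 2 higher and 1 to 4 lower with nutlin-3a, and 5 higher and 0 lower between the nutlin-3a and M-CSF groups. The counts over all genes then were 451 to 1299 in place of 1521, 352 to 1212 in place of 1441 and 1158 to 1529 in place of 2110; each of these fits has fewer arrays, and the lone array of a group is assumed to vary like the others. With trend and robust in eBayes, 5 members were lower with nutlin-3a, Mmp12 and Timp1 being added. Timp3 was then called with FSL-1 (adjusted p = 0.0201), and Mmp13 between the nutlin-3a and M-CSF groups (0.0459). In that setting 2744, 2658 and 3337 genes were called in the 3 comparisons, and the cause was not tested. Among genes above the median of all genes the counts were 2682, 2579 and 3290, with fewer genes tested. Mmp12 with nutlin-3a (0.0249) and Mmp13 between the nutlin-3a and M-CSF groups (0.0232) were then called. Among genes above the 25th percentile these 2 calls (0.0452 and 0.0449) and that of Timp3 with FSL-1 (0.0378) were made. Testing for a fold over 1.5 (treat) asks for more than a difference from 0 and left 208, 159 and 370 genes; with nutlin-3a it left 0 members higher (1 at an unadjusted p under 0.05) and 1 lower.

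Same-numbered arrays did not deviate together (correlations of replicate differences -0.19, 0.02 and -0.02), so the numbers were not taken as pairs. Under a replicate block 1167, 1005 and 1725 genes were called, and members higher and lower were 6 and 0, 2 and 2, and 5 and 0; the calls lost were Mmp19 with FSL-1 (adjusted p = 0.0848), Mmp8 with nutlin-3a (0.0532) and Mmp19 between the nutlin-3a and M-CSF groups (0.0549). Crossing the M-CSF numbers in that block, added after seeing the data, gave 1278, 1148 and 1971 genes and ended the calls of Mmp19 with FSL-1 (0.0607) and Mmp8 with nutlin-3a (0.0510). Centring each array on its median, or fitting the 2 compared groups alone, also ended the calls of Mmp19 (adjusted p from 0.0540 to 0.0868).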
